A study of Mus musculus with 5 samples.

Results

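The RNA levels of adherens junction genes were examined in EpH4 cells, a spontaneously immortalized mouse mammary epithelial line, with and without CRISPR targeting of Mef2d. The genes were the cadherins Cdh1 and Cdh3, the catenins Ctnna1, Ctnnb1 and Ctnnd1, the nectins Nectin1, Nectin2 and Nectin3, and the afadin gene Afdn, grouped by their role in the junction. Of these 9 genes, 8 were among the 12934 genes of the count table and all 8 passed the expression filter, which left 12483 genes tested. Cdh3, the gene for P-cadherin, had no entry in the table and was not analysed here.

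All libraries came from EpH4 cells that carried lentiviral Cas9 and were grown in DMEM with fetal bovine serum. The 3 sgControl libraries carried a control sgRNA and the 2 sgMef2d libraries an sgRNA against Mef2d, the gene of a MADS-box transcription factor, after drug selection of the infected cells. The study used a pair of sgRNAs against Mef2d, and the labels do not say which of them either sgMef2d library carries, nor whether libraries of a group came from separate cultures, so p-values measure only the spread between these libraries. The number of clones in each line is not stated in the sources used here.

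The adherens junction joins neighbouring epithelial cells. Classical cadherins bind each other across the gap between cells, and their cytoplasmic tails bind β-catenin and p120-catenin, while α-catenin links β-catenin to actin. Nectins are immunoglobulin-type adhesion molecules of the same junction, and afadin ties their tails to actin. In the mammary epithelium E-cadherin is the main cadherin of luminal cells, and P-cadherin is typical of myoepithelial cells.

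Library totals over the listed genes lay between 13601145 and 20498563 counts. CPM here are counts scaled to 1e6 per library total, with each total multiplied by its TMM normalization factor (0.9962 to 1.0034). Mef2d itself had 64.3, 76.9 and 71.5 CPM in sgControl and 64.2 and 65.8 CPM in sgMef2d, here and throughout in the order of the replicate numbers. This difference did not pass the test (log2 fold change -0.12, adjusted p = 0.400, edgeR), although it did without sgControl replicate 1 (-0.19, adjusted p = 0.00550, edgeR). The log2 fold change of Mef2d was -0.06 without sgControl replicate 2. Counts per gene do not show an edit or the amount of protein. sgControl replicate 1 stood apart from its group, with a median absolute log2 difference of 0.139 and 0.148 from replicates 2 and 3, which differed by 0.0848 from each other, and the sgMef2d libraries differed by 0.0807. Of the mammary epithelial markers 9 of 10 were listed, without Krt19, and they summed to between 4019 and 4174 CPM in sgControl and to 3799 and 3957 CPM in sgMef2d, where Krt18 was called lower (log2 fold change -0.26, adjusted p = 0.0207, edgeR). Of 7 endothelial markers none was listed. The fibroblast markers had 6 of 9 listed (Thy1, Lum and Dpt were absent), and they summed to between 643 and 767 CPM in sgControl and to 608 and 649 CPM in sgMef2d, where Col1a2 was called lower and the sparse Col3a1 and Dcn higher. The immune markers had 3 of 7 listed, without Ptprc, and summed to at most 5.12 CPM. The part of these markers in the results was not tested.

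Read per exon length, the junction was dominated by catenin RNA in these cells. The unit here is TPM, counts divided by the exon length of the gene and scaled so that the listed genes of a library sum to 1e6. Ctnnb1, which encodes β-catenin, was the most abundant member with 600 ± 22.3 TPM (SD, n = 3) in sgControl, and ranked 220 among all listed genes. Ctnna1, which encodes α-catenin, followed with 300.0 ± 22.7 TPM. Cdh1, which encodes E-cadherin, had 194 ± 20.2 TPM and Afdn 185 ± 16.2 TPM, and their ranges overlapped (172 to 212 TPM and 166 to 195 TPM), so these neighbours in the order did not differ beyond their spread. With the longest annotated transcript as the length, Afdn came before Cdh1 (244 and 200 TPM), so this part of the order depends on the gene model. The nectins were lower, with 53.0 ± 3.35 TPM for Nectin2, 29.7 ± 6.40 TPM for Nectin1 and 4.0 ± 0.158 TPM for Nectin3. In sgMef2d the order of these 7 genes was the same, from 532 ± 8.83 TPM (SD, n = 2) for Ctnnb1 to 4.14 ± 0.153 TPM for Nectin3.

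**Figure D1:**
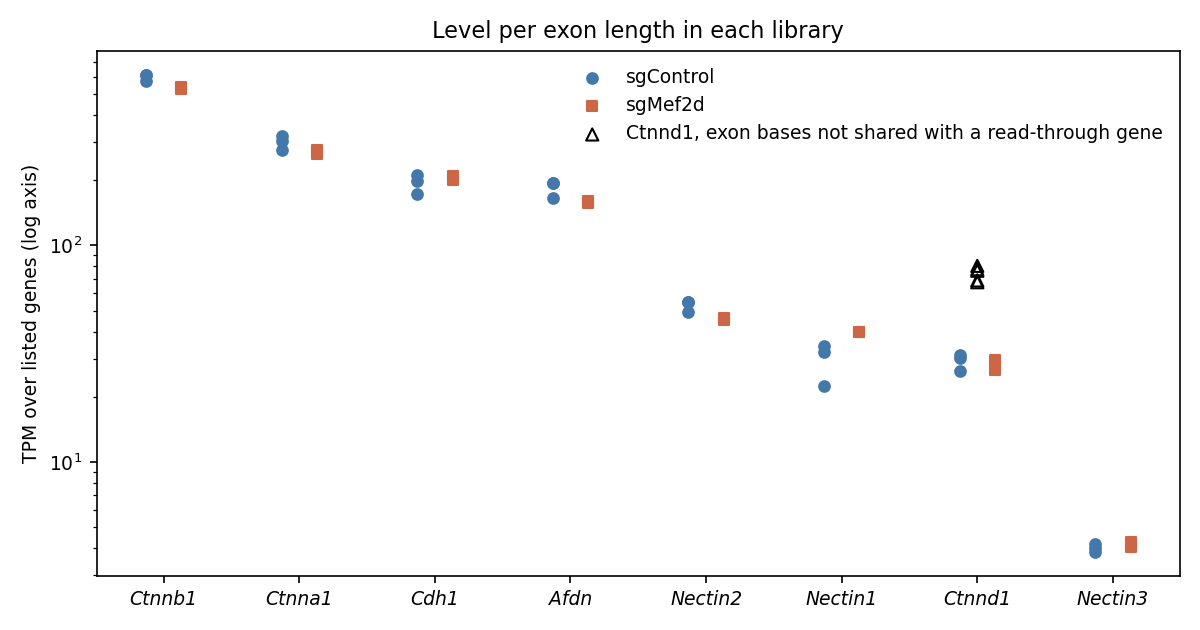
Level of each adherens junction gene per exon length (TPM over the listed genes, log axis), with a point for each of 3 sgControl libraries (circles) and 2 sgMef2d libraries (squares). The levels run from about 600 TPM for Ctnnb1 to about 4 TPM for Nectin3, and the triangles give Ctnnd1 with only the exon bases that no other gene shares.

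The level of Ctnnd1, which encodes p120-catenin, is uncertain. On chromosome 2 of GRCm38 (84600071 to 84650765, minus strand), 4482 of its 7319 exon bases (61.2%) also belong to the read-through gene Gm28635 on the same strand, which had no entry in the table. Of the 50-base words of its transcripts, 56.7% occur in other genes' transcripts, and counting that sets aside reads shared by 2 genes would lose them. Over the full exon length Ctnnd1 had 29.2 ± 2.63 TPM in sgControl, level with Nectin1, and over the 2837 unshared bases 75.2 ± 6.77 TPM, above all 3 nectins. How reads on overlapping genes were counted is not given in the sources used here, so the place of Ctnnd1 in the order is not settled between these values. The other 7 genes shared at most 2.12% of such words with other genes. Ctnnb1 overlaps Ulk4 on the opposite strand over 14.6% of its exon bases, and the libraries marked strand, but the strand setting of the counting is not stated.

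Between sgMef2d and sgControl, 1 nectin gene rose, and the cadherin and catenin genes showed small differences. Nectin1 was the only member past the threshold among the 8 tested, against 7.95% of all genes called (3.67% higher and 4.28% lower, at a Benjamini-Hochberg adjusted p below 0.05 in the quasi-likelihood test of edgeR). At an unadjusted p below 0.05 there were 4 members, Nectin1, Afdn, Nectin2 and Ctnnb1, against 23.2% of all genes. The other 7 members had log2 fold changes between -0.17 and 0.13 that did not pass the test. Over the 8 members the median log2 fold change was -0.05, beside 0.0031 over all genes tested, with 4 members higher and 4 lower. In CPM the groups did not overlap in 6 members, 2 higher and 4 lower in sgMef2d, where 41.1% of all genes tested showed no overlap (20.6% higher and 20.5% lower). In TPM, Cdh1 and Ctnna1 overlapped between the groups, while Nectin1 stayed higher and Ctnnb1, Nectin2 and Afdn stayed lower. The share of all genes without overlap in TPM was not computed. Cdh1 also overlapped in counts per library total without the TMM factor.

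Nectin1 (ENSMUSG00000032012.8, chromosome 9, 43743984 to 43807461, plus strand) encodes nectin-1, an adhesion molecule of the junction that also serves as an entry receptor of herpes simplex virus. Its level was 37.5, 51.3 and 54.1 CPM in sgControl and 66.6 and 66.3 CPM in sgMef2d. Both sgMef2d libraries lay above all sgControl libraries, and sgControl replicate 1 lay well below its group. Its mean was 47.6 ± 8.89 CPM (SD, n = 3) in sgControl and 66.4 ± 0.252 CPM (SD, n = 2) in sgMef2d. The fitted difference was 1.40-fold, a log2 fold change of 0.49 (standard error 0.12, 95% interval 0.22 to 0.76, adjusted p = 0.0342, edgeR). Leaving out sgControl replicate 1 gave a log2 fold change of 0.33 (adjusted p = 3.82e-06, edgeR). With a single sgMef2d library left, the call was lost at nearly the same size (log2 fold changes of 0.48 and 0.49, adjusted p = 0.213 and 0.234).

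Nectin2 (ENSMUSG00000062300.14, chromosome 7, 19716644 to 19750483, minus strand) encodes nectin-2, which binds itself and nectin-3 across cells and is also a ligand of immune receptors. Nectin2 measured 50.9, 54.1 and 53.4 CPM in the sgControl libraries and 46.7 and 47.5 CPM in the sgMef2d libraries. Both sgMef2d libraries lay below all sgControl libraries, with a log2 fold change of -0.16 (95% interval -0.31 to -0.01) that did not pass the test (adjusted p = 0.177, edgeR). Nectin3 (ENSMUSG00000022656.15, chromosome 16, 46387706 to 46498525, minus strand), the preferred partner of nectin-1 and nectin-2 across cells, was counted least often, with 194 to 322 counts per library. Its values were 15.7, 13.8 and 14.2 CPM in sgControl and 15.9 and 15.2 CPM in sgMef2d, and the groups overlapped. The interval of its log2 fold change ran from -0.14 to 0.32, and a difference within that range could not be detected with these libraries.

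The shares of Nectin1 and Nectin2 in nectin RNA did not overlap between the groups, and that of Nectin3 did. As a share of the reads per kilobase of Nectin1, Nectin2 and Nectin3, Nectin2 took 64.9%, 60.4% and 58.9% in sgControl and 50.6% and 51.3% in sgMef2d. Nectin1 took 29.6%, 35.4% and 36.8% in sgControl and 44.6% and 44.2% in sgMef2d, while Nectin3 stayed between 4.23% and 5.49%. The Nectin2 share was 61.4% ± 3.15 (SD, n = 3) against 51.0% ± 0.451 (SD, n = 2), a difference of -10.4 percentage points. An exact two-sided permutation test over the 5 libraries gave p = 0.1, the smallest value that these 10 splits allow, and the separation follows from the values of Nectin1 and Nectin2 already given. In counts, there were 0.737, 0.949 and 1.01 Nectin1 reads for each Nectin2 read in the sgControl libraries and 1.43 and 1.40 in the sgMef2d libraries, a ratio that does not depend on the scaling between libraries and was chosen after its values were seen.

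**Figure D2:**
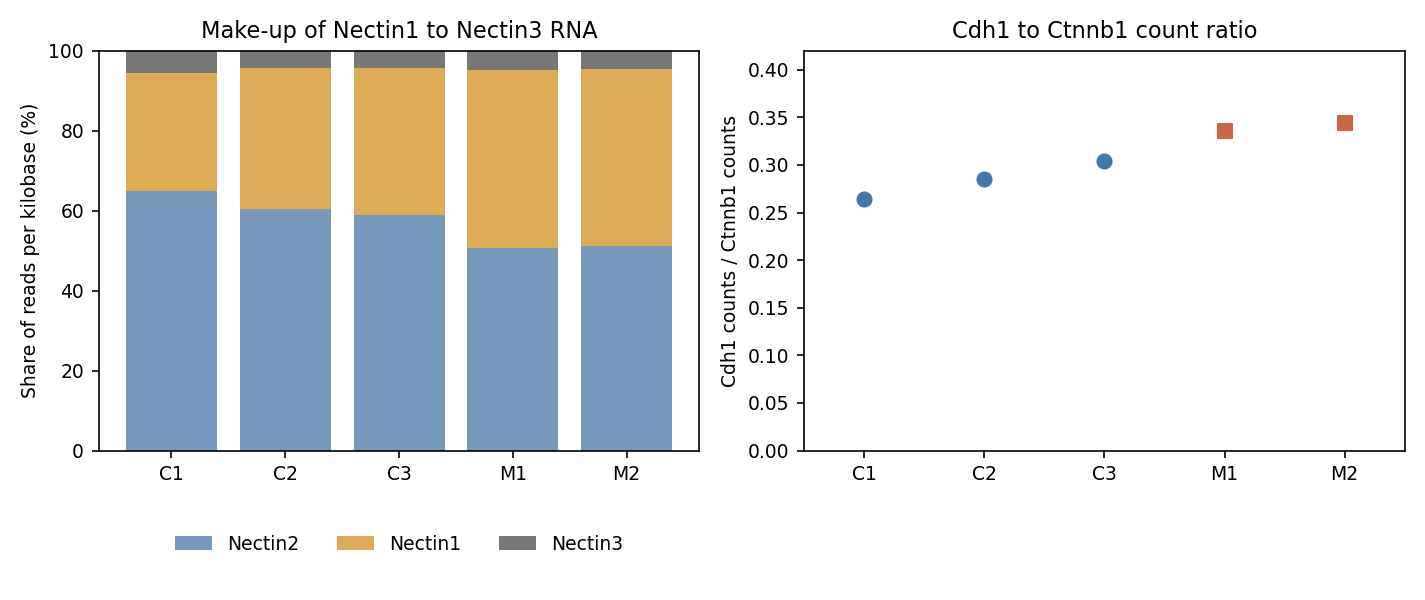
Left, shares of Nectin2, Nectin1 and Nectin3 in their summed reads per kilobase (%) in sgControl replicates 1 to 3 (C1 to C3) and sgMef2d replicates 1 and 2 (M1, M2). The Nectin2 share is 58.9% or more in each sgControl library and at most 51.3% in the sgMef2d libraries. Right, counts of Cdh1 divided by counts of Ctnnb1 in the same libraries (circles sgControl, squares sgMef2d), which lie between 0.264 and 0.304 in sgControl and at 0.336 and 0.344 in sgMef2d.

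Cdh1 (ENSMUSG00000000303.12, chromosome 8, 106603351 to 106670246, plus strand) had no lower RNA level in sgMef2d. Its values were 234, 255 and 270.1 CPM in sgControl and 270.5 and 284 CPM in sgMef2d. In CPM both sgMef2d libraries lay above the sgControl libraries, the nearest by less than the gap between any 2 sgControl libraries. Without the TMM factor in the scaling, sgControl replicate 3 lay above sgMef2d replicate 1, so the groups then overlapped. The log2 fold change of 0.13 had a 95% interval of -0.02 to 0.28 and did not pass the test (adjusted p = 0.272, edgeR), and over the alternatives run for Cdh1 it lay between 0.08 and 0.18 with adjusted p between 0.0902 and 0.772. A fall of Cdh1 RNA by more than 0.02 on the log2 scale lies outside this interval.

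The catenins that carry the cadherin's link to actin had slightly lower values. Ctnnb1 (ENSMUSG00000006932.17, chromosome 9, 120929216 to 120960507, plus strand) encodes β-catenin, which is also the transcriptional effector of Wnt signaling. Its level was 883, 894 and 888 CPM in sgControl and 805 and 825 CPM in sgMef2d, with no overlap of the groups. The log2 fold change was -0.13 (95% interval -0.25 to -0.0031) and did not pass the test over all genes (adjusted p = 0.204, edgeR). Ctnna1 (ENSMUSG00000037815.7, chromosome 18, 35118859 to 35254779, plus strand) had 525, 550 and 573 CPM in sgControl and 523 and 503 CPM in sgMef2d. sgMef2d replicate 1 and sgControl replicate 1 were nearly level in this gene, and the log2 fold change of -0.10 (95% interval -0.23 to 0.03) did not pass the test (adjusted p = 0.362). Ctnnd1 had 56.8, 62.2 and 63.5 CPM in sgControl and 63.9 and 57.7 CPM in sgMef2d, and its groups overlapped. Its log2 fold change was 0.0035 with a 95% interval of -0.16 to 0.17, and the sign turned under some alternatives.

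The balance between Cdh1 and Ctnnb1, neither of which passed the test, was read within each library. There were 0.264, 0.285 and 0.304 Cdh1 counts for each Ctnnb1 count in sgControl and 0.336 and 0.344 in sgMef2d. The ratio was 0.285 ± 0.0198 (SD, n = 3) against 0.340 ± 0.00561 (SD, n = 2). It was chosen after the values were seen, and its separation of the groups follows from those of Cdh1 and Ctnnb1, so no test is given.

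Afdn (ENSMUSG00000068036.15, chromosome 17, 13760539 to 13906150, plus strand) encodes afadin, the actin-binding scaffold of the nectins. It had 503, 562 and 550.3 CPM in sgControl and 482 and 472 CPM in sgMef2d, with both sgMef2d libraries below the sgControl libraries. Its mean was 538 ± 31.2 CPM (SD, n = 3) in sgControl and 477 ± 7.13 CPM (SD, n = 2) in sgMef2d, and the log2 fold change of -0.17 (95% interval -0.31 to -0.03) did not pass the test over all genes (adjusted p = 0.127, edgeR). With the dependence on exon length and GC content taken out of each library, the log2 fold change of Afdn was -0.09 (adjusted p = 0.215), so its size depends on that step.

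**Figure D3:**
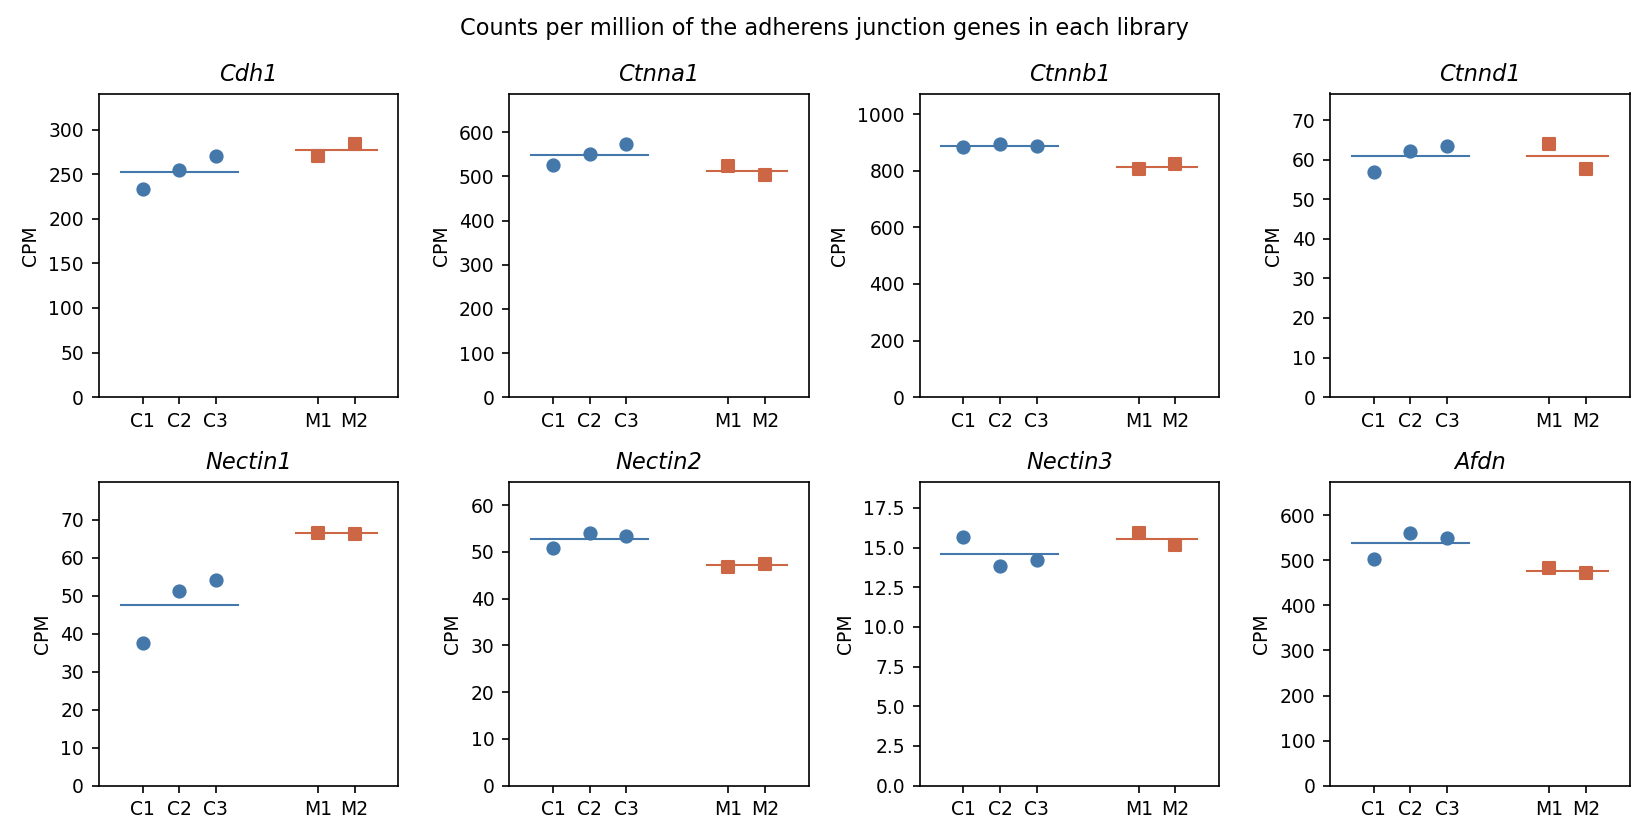
CPM of each adherens junction gene in sgControl replicates 1 to 3 (C1 to C3, circles) and sgMef2d replicates 1 and 2 (M1, M2, squares), with a line at each group mean and axes that start at 0. Nectin1 shows the widest gap relative to its level, from 47.6 to 66.4 CPM in the means.

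The number of members called depended on the libraries used. Without sgControl replicate 1, 5 of the 8 members passed the threshold, 1 higher and 4 lower, but 29.4% of all 12377 genes tested then also passed it, 14.6% higher and 14.8% lower. The 4 lower members were Afdn (log2 fold change -0.22, adjusted p = 2.82e-07), Ctnnb1 (-0.13, adjusted p = 0.00162), Ctnna1 (-0.13, adjusted p = 0.00246) and Nectin2 (-0.19, adjusted p = 0.0157), all from edgeR on the remaining 4 libraries. Cdh1 stayed short of the threshold in that fit (log2 fold change 0.08, 95% interval -0.00096 to 0.16, adjusted p = 0.136). The sizes in both fits were below those of Nectin1 for each of these 5 genes. With either sgMef2d library left out, the call of Nectin1 was lost (log2 fold changes of 0.48 and 0.49), with a single library left in that group.

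**Figure D4:**
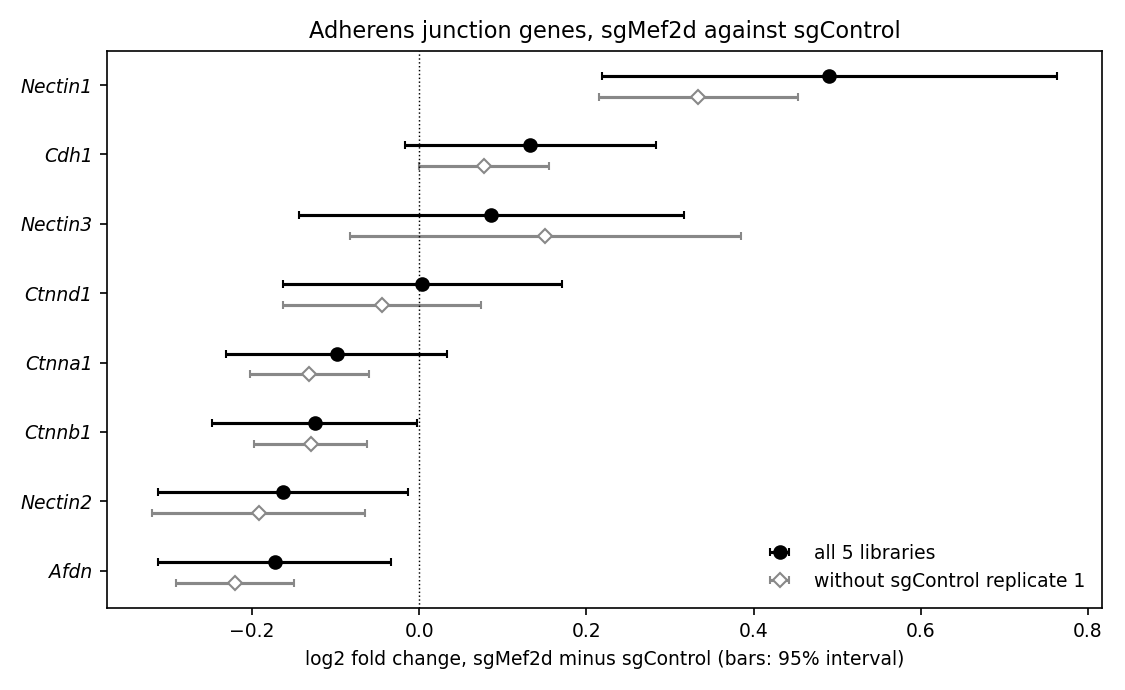
Log2 fold change of each adherens junction gene, sgMef2d minus sgControl, with its 95% interval, over all 5 libraries (filled circles) and without sgControl replicate 1 (open diamonds). The intervals of Nectin1 lie above 0 in both fits. Those of Afdn, Nectin2 and Ctnnb1 lie below 0 in both, and that of Ctnna1 only without sgControl replicate 1 (-0.20 to -0.06).

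Start-site windows from RefSeq (GRCm38.p6, 250 bases before to 50 bases after each start) were read for 5 of the 9 genes, in 7 windows. Those of 3 members whose sgMef2d libraries lay below every sgControl library are shown 5′ to 3′ on the gene's strand, for the sequence around the starts of these genes, none of which passed the test over all 5 libraries. Capitals mark CACCTG or its reverse complement CAGGTG, the E-box bound by SNAI and ZEB repressors.
Nectin2 (chr7:19749524-19749823, minus strand): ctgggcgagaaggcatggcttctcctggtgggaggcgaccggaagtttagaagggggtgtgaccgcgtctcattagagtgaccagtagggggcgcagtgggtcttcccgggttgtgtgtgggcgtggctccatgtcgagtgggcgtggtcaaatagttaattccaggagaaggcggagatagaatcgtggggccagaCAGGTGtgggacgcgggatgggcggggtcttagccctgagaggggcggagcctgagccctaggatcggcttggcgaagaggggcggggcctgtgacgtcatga
Ctnnb1 (chr9:120933150-120933449, plus strand, the first of 2 windows): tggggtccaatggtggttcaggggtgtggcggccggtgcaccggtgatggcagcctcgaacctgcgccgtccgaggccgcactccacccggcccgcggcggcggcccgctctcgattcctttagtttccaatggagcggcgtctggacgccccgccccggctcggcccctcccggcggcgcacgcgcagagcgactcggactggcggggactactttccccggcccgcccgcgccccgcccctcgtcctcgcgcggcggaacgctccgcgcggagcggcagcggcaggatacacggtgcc
Afdn (chr17:13760291-13760590, plus strand): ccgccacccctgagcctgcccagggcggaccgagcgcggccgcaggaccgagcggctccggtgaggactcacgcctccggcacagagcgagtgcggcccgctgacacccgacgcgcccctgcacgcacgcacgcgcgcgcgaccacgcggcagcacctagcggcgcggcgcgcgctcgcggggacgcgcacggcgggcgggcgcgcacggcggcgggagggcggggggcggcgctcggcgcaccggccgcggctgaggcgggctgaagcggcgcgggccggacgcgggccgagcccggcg
The E-box stood in 1 of the 7 windows, that of Nectin2, and in 20.2% of all 32851 windows. The MEF2 core CTANNNNTAG, which is its own reverse complement, was found in none of the 7 windows and in 3.69% of all windows. The share of G and C was 62.7% in the window of Nectin2, 75.3% in that of Ctnnb1 and 83.3% in that of Afdn, and over the 7 windows it ran from 42.7% (1 of the 2 windows of Ctnnd1) to 83.3%. The table held no window for Cdh1, Cdh3, Nectin1 and Ctnna1.

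Among the other genes of the junction, changes of more than 1 on the log2 scale that passed the test were in the cadherin superfamily. Of 40 other cadherins and protocadherins, 18 were listed, 17 were tested and 5 passed the threshold (29.4%, beside 7.95% of all genes tested), 3 higher and 2 lower in sgMef2d. Fat2, an atypical cadherin of the FAT family, had 2.63, 2.13 and 2.57 CPM in sgControl and 8.59 and 8.75 CPM in sgMef2d (log2 fold change 1.81, adjusted p = 7.30e-05, edgeR). Cdh17, an intestinal cadherin, rose from 3, 1 and 4 counts to 18 and 15 counts (log2 fold change 2.59, 95% interval 1.42 to 3.76), a level at which counting error is large. It passed the expression filter only through the sgMef2d libraries, where it was high, so its place among the genes tested rested on that group. Pcdh7, a protocadherin, rose from 52.6, 63.7 and 61.5 CPM to 74.2 and 75.3 CPM (log2 fold change 0.34). Cdhr1, a photoreceptor cadherin, fell with a log2 fold change of -1.07, from at least 3.22 CPM in each sgControl library to 1.77 and 2.09 CPM. Dchs2, an atypical cadherin of the Dachsous family, passed the filter through its sgControl libraries and fell with a log2 fold change of -1.34. It was named after its values were seen, as the remaining one of the 5. Cdh2, which encodes N-cadherin, was also named after its values were seen, and had 30 to 51 counts per library, with 1.95, 2.62 and 2.20 CPM in sgControl and 3.0 and 3.30 CPM in sgMef2d (log2 fold change 0.50, adjusted p = 0.209). The median log2 fold change of the 17 genes was -0.01.

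The other catenins had 6 of 9 genes tested, of which 1 rose and 1 fell (33.3%, beside 7.95% of all genes). Jup encodes plakoglobin, a relative of β-catenin that serves both adherens junctions and desmosomes. Jup had 122, 137 and 147 CPM in sgControl and 165 and 180.3 CPM in sgMef2d, so the groups did not overlap (log2 fold change 0.35, 95% interval 0.18 to 0.52, adjusted p = 0.0201, edgeR). Left without sgControl replicate 2, Jup had an adjusted p of 0.0548 in edgeR. Ctnnal1, an α-catenin-like gene, fell from 74.5, 70.3 and 71.3 CPM to 58.7 and 57.0 CPM (log2 fold change -0.32, adjusted p = 0.0120). Pkp4 and Ctnnbip1 did not pass it, with log2 fold changes of 0.08 and 0.10.

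Of the other nectins and immunoglobulin adhesion molecules with their partners, 8 of 11 genes were tested and 2 fell (25.0%, beside 7.95% of all genes called and 4.28% called lower). Cadm1, a nectin-like adhesion molecule, measured 101.2, 101.0 and 97.3 CPM in sgControl and 76.9 and 74.7 CPM in sgMef2d (log2 fold change -0.40, adjusted p = 0.00244, edgeR). Lmo7, which encodes an afadin- and actinin-binding protein, fell by 0.42 on the log2 scale (adjusted p = 0.0200), and the call was lost without sgControl replicate 2 (adjusted p = 0.0631). Cadm4, another nectin-like molecule, did not pass the test (log2 fold change 0.40, adjusted p = 0.0910). The median of the 8 genes was 0.13.

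Genes that tie the junction to the cytoskeleton were measured most completely, with 30 of 31 tested. Plekha7, which encodes a p120-catenin partner that tethers microtubules, rose from 29.8, 30.0 and 29.0 CPM to 37.7 and 34.9 CPM (log2 fold change 0.29, adjusted p = 0.0388). Actn1, which encodes the actin crosslinker α-actinin-1, fell from 502, 555 and 545 CPM to 448 and 461 CPM (log2 fold change -0.23, adjusted p = 0.0422). Neither call held without sgControl replicate 2 (adjusted p = 0.107 and 0.187) or replicate 3 (0.0951 and 0.0998), neither held with the replicate number as a block (0.0576 and 0.0866), and Plekha7 was not called by DESeq2 (adjusted p = 0.109). Scrib, a polarity gene (0.22, adjusted p = 0.0635), and Shroom2, an actin-binding gene (-0.23, adjusted p = 0.0912), did not pass the test on their log2 fold changes. The list had a median of -0.05 with 22 of 30 genes lower, and 6.67% of its genes were called, near the background of 7.95%. Where no other tool is named here, the adjusted p values are those of edgeR.

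Among 29 genes of cadherin turnover and phosphorylation, all tested, 1 fell (3.45%, beside 7.95% of all genes called and 4.28% called lower). Rab11a, a GTPase of the recycling endosome through which E-cadherin passes, had 157, 136 and 137 CPM in sgControl and 115 and 117 CPM in sgMef2d (log2 fold change -0.31, adjusted p = 0.0262, edgeR). Ptprk, a receptor phosphatase of cell contacts (-0.22, adjusted p = 0.0571), Numb, an endocytic adaptor (-0.26, adjusted p = 0.0601), and the kinase gene Yes1 (-0.19, adjusted p = 0.119) did not pass it on their log2 fold changes.

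Of the 8 repressors of E-cadherin, 1 was called (12.5%, beside 7.95% of all genes). Tcf4, which encodes an E-box-binding factor, had 54.9, 59.0 and 58.3 CPM in sgControl and 38.4 and 36.9 CPM in sgMef2d (log2 fold change -0.61, adjusted p = 5.20e-04, edgeR). Twist1, Snai1 and Zeb2 did not pass it, with log2 fold changes of -0.32, 0.19 and 0.16. Beside these lists, 2 of 20 tight junction genes were called (10%, beside the same 7.95%), 1 higher and 1 lower, with -0.09 as the list's median log2 fold change and the smallest p for Cgnl1, the gene of paracingulin (-0.29, adjusted p = 0.0332). The desmosome list had 2 of 8 genes called (25.0%, beside 7.95% of all genes called and 3.67% called higher), both higher, with a median of 0.16. Its smallest p was that of the desmosomal cadherin Dsg3, which went from 0.390, 0.780 and 0.147 CPM to 12.1 and 12.5 CPM (log2 fold change 4.79). Dsg3 too passed the expression filter only through the sgMef2d libraries.

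The calls among these related genes also rested on the libraries used. Fat2, Tcf4 and Dsg3 were called under every alternative run for them. Cadm1 lost its call without sgMef2d replicate 2 (adjusted p = 0.0747, edgeR), and the other named genes lost theirs with either sgMef2d library left out, Cgnl1 also without sgControl replicate 2 (0.131) or replicate 3 (0.0805), as did Dchs2 in both of those fits. Without sgControl replicate 1, where 29.4% of all genes were called, the called genes were 4 higher and 7 lower of 17 other cadherins, 2 higher and 13 lower of 30 cytoskeletal linkers and 2 higher and 8 lower of 29 turnover genes. They were 1 higher and 8 lower of 20 tight junction genes and 5 higher and 1 lower of 8 desmosome genes. The other catenins kept 1 higher and 1 lower, the other nectins had 1 higher and 2 lower, and the E-cadherin repressors 1 higher and 1 lower.

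**Figure D5:**
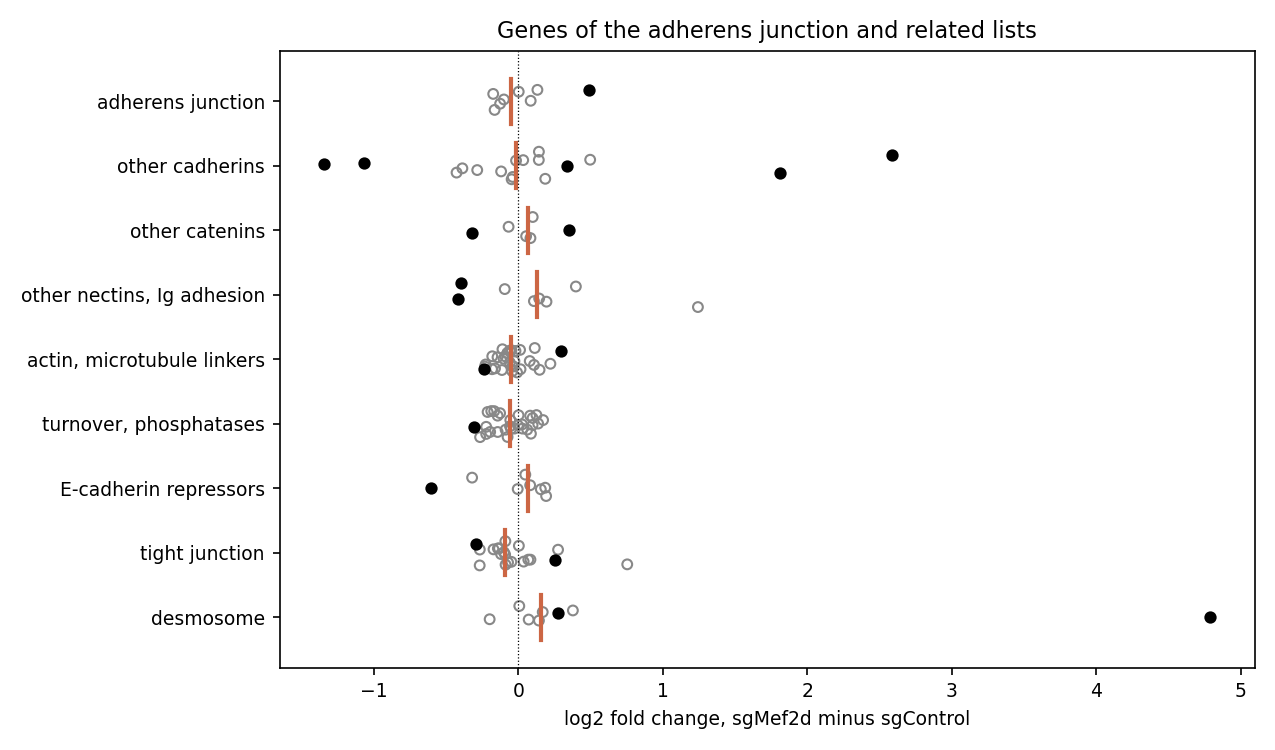
Log2 fold change, sgMef2d minus sgControl, of every tested gene in the adherens junction list, 6 related lists and the tight junction and desmosome lists, with filled points for genes with an adjusted p below 0.05 and a bar at each list's median. The adherens junction genes lie between -0.17 and 0.49, and Dsg3, Cdh17 and Fat2 lie far to the right, Dchs2 and Cdhr1 to the left.

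Over the 5 libraries, the genes whose log2 CPM followed Cdh1 most closely were Ppp2r1b, a subunit gene of protein phosphatase 2A (Pearson r = 0.999), Mfap3 (r = 0.999) and Hk1, which encodes hexokinase 1 (r = 0.998). They were drawn from 8038 genes, of which 154 had r above 0.95, and these points share 2 groups and their libraries, so the values are a description. Like Cdh1, none of these 3 genes passed the test between the groups (log2 fold changes of 0.10, 0.17 and 0.17). Among the members, log2 CPM of Nectin1 followed Cdh1 (r = 0.945) and log2 CPM of Afdn followed Nectin2 (r = 0.962) over the same 5 libraries.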

How the data were processed

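RNA-seq of 5 EpH4 libraries was analysed. The authors aligned reads with STAR2 to GRCm38 (GENCODE version 22 in their methods, with FASTQC and RSeQC checks), and the submitters' processing notes also name CASAVA and Subread. The deposited values are raw counts per gene, from which the authors had removed low-count genes, since the lowest maximum of any listed gene over the libraries was 11 counts. The settings for strand and overlapping genes are not given in the sources used here. All 12934 identifiers matched GENCODE M21 without the version.

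Counts were normalized by TMM and tested with edgeR 4.0.16 in R 4.3.3 (quasi-likelihood test, bias-adjusted form, default expression filter by group, no block), with Benjamini-Hochberg adjustment over all 12483 genes tested and a threshold of 0.05. The 95% intervals came from the same fit. TPM used the union of annotated exons. Scripts were tested on simulated data. PCR copies were not identified, so counting error is the least error. Depth left genes near 3 counts (0.146 to 0.22 CPM) undetermined.

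The members and lists were chosen with earlier results of these data known. The genes named were the members, the up to 4 genes with the smallest p of each related list, 1 of each comparison list, the 3 genes most like Cdh1 and Mef2d. Alternatives were other normalizations and filters, DESeq2 1.42.0, limma-voom (limma 3.58.1), the legacy form of edgeR, a replicate block, removal of length and GC trends (loess, span 0.3), and leaving out each library. After the data were seen, the ratios and a transcript length for the nectin share were added. Some genes of the related lists are counted in totals but not reported here.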

Additional observations from a re-analysis of the deposited data

How the results depend on the processing

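Nectin1 kept its direction in all 15 alternatives and its call in 13, with log2 fold changes between 0.33 and 0.60 (0.33 to 0.59 with a library left out). Leaving out each library gave -0.22 to -0.14 for Afdn, -0.132 to -0.068 for Ctnna1, -0.15 to -0.11 for Ctnnb1, -0.19 to -0.15 for Nectin2 and -0.078 to 0.069 for Ctnnd1, whose sign turned without sgControl replicate 1 (-0.04) and sgMef2d replicate 1 (-0.078) and with library totals (-0.0040). The cause was not tested. Nectin2 passed the threshold with the length and GC trend removed (-0.24, adjusted p = 0.0213, edgeR), and 2 members and 24 genes of the related lists were then called, against 1 and 13, where 11.6% of all genes were, against 7.95%. With a library left out these counts ran from 0 to 5 and from 2 to 49, and over all genes from 234 to 3639, against 992. At an unadjusted p below 0.05 they were 4, 36 and 2901, and at an adjusted p below 0.01 the count over all genes was 422. The difference in the Nectin3 share lay between -0.282 and 0.350 percentage points with a library left out and turned sign without sgControl replicate 1 (0.350) and sgMef2d replicate 2 (0.0652). The Nectin2 share differed by -11.7 to -8.66 percentage points over its alternatives. The P-cadherin share was not run, since Cdh3 had no entry.

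The replicate numbers do not pair the libraries, since deviations of same-numbered libraries correlated by 0.0113 and -0.00092. With the replicate number as a block, edgeR called 1254 genes, 901 of them among the 992, and Nectin1 alone among the members (0.60, adjusted p = 8.46e-09). A single remaining sgMef2d library was assumed to vary like the sgControl group.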
